A study of Mus musculus with 12 samples.

Results

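BC002163 is a mouse processed pseudogene and Ndufs5 is the protein-coding gene it was copied from, and both were followed here library by library in mural granulosa cells (MGCs) and cumulus cells. These 2 genes were taken by name from the 29101 genes of the MGC table and the 33137 genes of the cumulus cell table. BC002163 was chosen by its deposited values in FPKM (fragments per kilobase of exon and per 1000000 fragments), which separate the genotypes in both cell types, and Ndufs5 as its parent, so the genotype difference of BC002163 is given as a description, without a test. MGCs line the wall of the ovarian follicle, and cumulus cells surround the oocyte. RNA was sequenced from 3 libraries of each cell type in each genotype, 12 libraries in all, taken 2 h after human chorionic gonadotropin (hCG). The methods name purchased C57/BL6 mice as WT, without saying that the libraries labelled control came from them. The Sphk1/2gc-/- mice were Sphk1-/-; Sphk2 fl/fl; Fshr-Cre, so they lacked Sphk1 in every tissue and lost Sphk2 where the Fshr-driven Cre acts, which among ovarian cells means granulosa cells. Females were 21 to 23 days old and received 5 IU of equine chorionic gonadotropin, followed by 5 IU of hCG 48 h later, in both genotypes. The sources do not say whether the WT mice were littermates of the knockout, whether animals were pooled, or whether the 3 libraries of a group came from separate animals, so the p-values below measure only the spread between these libraries.

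A processed pseudogene arises when an mRNA is reverse transcribed and inserted back into the genome, so it carries the exons joined together without introns. Ndufs5 encodes an accessory subunit of respiratory complex I (NADH:ubiquinone oxidoreductase), the enzyme of the inner mitochondrial membrane that passes electrons from NADH to ubiquinone and pumps protons. The Ndufs5 protein faces the intermembrane space and belongs to a family with paired cysteine motifs that are oxidised during import by Chchd4 and Gfer.

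In the GENCODE M21 annotation of GRCm38, BC002163 (ENSMUSG00000081824) is a single exon block of 319 bases on the plus strand at chr16:42955631-42955949. It lies inside an intron of Zbtb20, which encodes a zinc finger transcriptional repressor, on the same strand, and overlaps no annotated exon. Ndufs5 (ENSMUSG00000028648) is on the minus strand at chr4:123712710-123718202, with 3 exon blocks that sum to 860 bases. BC002163 runs from the first base of the Ndufs5 start codon and covers all but the last 2 bases of the coding sequence, across the junction of coding exon 1 (bases 1 to 216) and coding exon 2 (bases 217 to 321). Of its 319 bases, 317 (99.4%) are the same as in Ndufs5, with 0 gaps. Written with the Ndufs5 base first and counted from the start codon, the differences are T81C in codon 27 and A105G in codon 35. Neither changes the encoded amino acid, and none of the 106 codons compared holds a premature stop. The first 150 bases of each are shown because they hold both differing bases, in capitals, which are the only letters here that tell a read of the one from a read of the other. The BC002163 stretch is chr16:42955631-42955780 (plus strand) and the Ndufs5 stretch is chr4:123715930-123716079 (minus strand), both from the GRCm38 transcripts:
BC002163: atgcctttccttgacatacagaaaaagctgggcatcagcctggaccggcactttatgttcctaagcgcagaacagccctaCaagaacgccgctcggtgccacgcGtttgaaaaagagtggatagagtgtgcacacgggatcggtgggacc
Ndufs5: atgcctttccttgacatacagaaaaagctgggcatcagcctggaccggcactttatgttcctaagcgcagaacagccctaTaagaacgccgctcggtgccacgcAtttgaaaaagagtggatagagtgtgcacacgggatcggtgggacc

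The remaining letters split into identical stretches of 80, 23 and 214 bases. Among all windows of 50 bases in BC002163, 72.6% are found unchanged in the Ndufs5 transcript, and among windows of 100 bases 52.3% are. A read from one of these windows carries no base that assigns it to either gene. How reads with several matches were assigned, and the read length, are not given in the sources used here, so each value below is what is listed under a gene, and reads of the pair cannot be told apart in those stretches. RefSeq lists the pseudogene as Ndufs5-ps, with type transcribed pseudogene, and extends it by 51 bases upstream and 130 bases downstream of the GENCODE model. A search of 141767 annotated transcripts found 1 gene, BC002163, with a match to Ndufs5 over at least 200 bases at 80% identity or more, and unannotated copies were not searched.

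**Figure D1:**
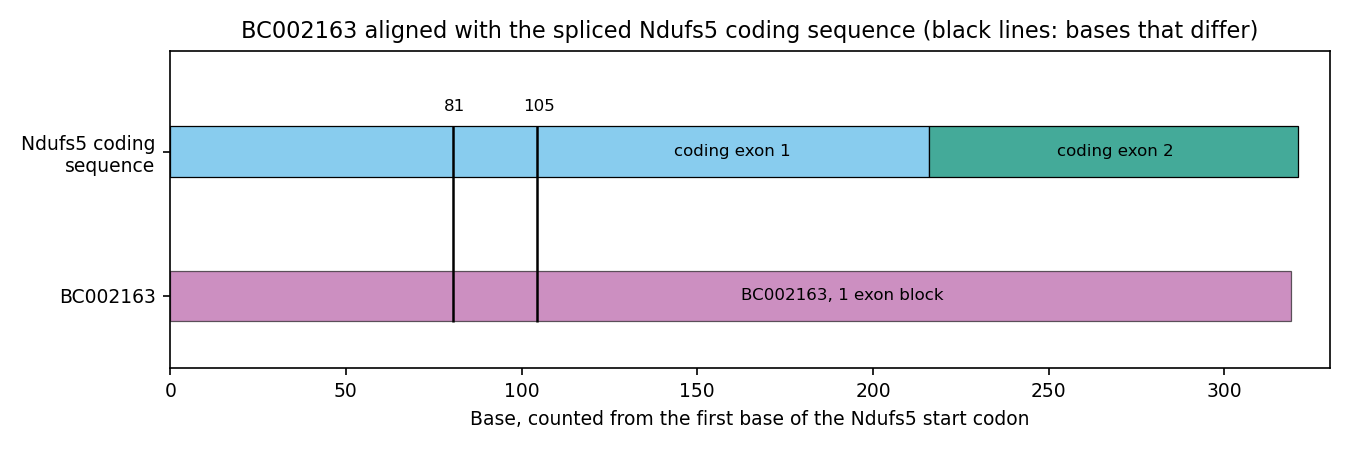
Map of BC002163 (lower bar, 1 exon block of 319 bases) against the spliced Ndufs5 coding sequence (upper bar, 2 coding exons), drawn to scale in bases counted from the start codon. Black lines mark the 2 bases that differ, at positions 81 and 105, both in coding exon 1, and no base differs over the 214 bases after them.

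Before the values, 3 facts about the whole set of libraries bear on them. The read total implied by the FPKM value of 1 read lay between 16100365 and 19761604 per library. It is called the recovered reads, or recovered total, of a library below, and is not a sum over genes. As multiples of 1 read, 90.6% to 92.1% of values came out whole within 0.02 reads. The third WT cumulus library had 27541 genes above 0, against 18788 to 19289 in the other cumulus libraries. The third Sphk1/2gc-/- MGC library correlated with the other MGC libraries at r = 0.912 to 0.939 over 15279 genes, the lowest range of the 6. Sphk1, a targeted gene, was listed at 1.34 ± 0.770 FPKM (SD, n = 3) in WT MGCs and 0.364 ± 0.234 FPKM in Sphk1/2gc-/- MGCs. These MGC groups overlapped, at 132, 151 and 37 reads in WT and 35, 45 and 9 in Sphk1/2gc-/-. Sphk1 was not called in MGCs (limma adjusted p = 0.520). In cumulus cells it went against the labels, at 0.0855 ± 0.0136 FPKM (6 to 8 reads) in the libraries labelled WT and 0.364 ± 0.253 FPKM (7, 43 and 51 reads) in those labelled Sphk1/2gc-/-. Sphk2, listed over the whole gene and not over the floxed exons, read 5.43 ± 0.373 FPKM in WT MGCs, 5.16 ± 0.982 in Sphk1/2gc-/- MGCs, 0.508 ± 0.0999 in WT cumulus cells and 0.586 ± 0.160 in Sphk1/2gc-/- cumulus cells. Genotype names are therefore those of the labels throughout. Granulosa markers Inha and Fshr were present in both cell types, while Amh was at 136 FPKM in WT MGCs and 0.704 FPKM in WT cumulus cells. Hsd17b1 went the other way, at 375 and 1135 FPKM, as did Fshr, at 59.8 and 105 FPKM. The other granulosa markers on the list used were higher in WT MGCs.

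BC002163 was near the limit of detection in WT MGCs and well above it in every Sphk1/2gc-/- library. In WT MGCs it was listed at 0.570, 0.374 and 1.30 FPKM, which is 3, 2 and 7 reads, with 3 reads taken as the limit that a count of 0 allows. In Sphk1/2gc-/- MGCs it was listed at 27.4, 24.8 and 31.6 FPKM, which is 148, 134 and 182 reads. The lowest Sphk1/2gc-/- library lay above the highest WT library, as it did for 7.72% of the 15279 genes tested in MGCs, and 0.00654% were called higher, by the rule of an adjusted p of at most 0.05 and at least a 2-fold change. That 0.00654% is 1 gene, BC002163 itself, here and wherever the share is given below. Apart from the chosen gene, none was called higher in MGCs. BC002163 was chosen on these values, so nothing is read from its place against these shares.

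In cumulus cells the same order held at a higher level. WT cumulus libraries were at 3.89, 4.53 and 2.68 FPKM (20, 26 and 15 reads), and Sphk1/2gc-/- cumulus libraries were at 105, 159 and 132 FPKM (629, 1003 and 807 reads). Again the groups did not overlap, which was so in this direction for 18.2% of the 12205 genes tested in cumulus cells, of which 4.19% were called higher. Because BC002163 was chosen for this pattern, nothing is read from its place against those shares.

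**Figure D2:**
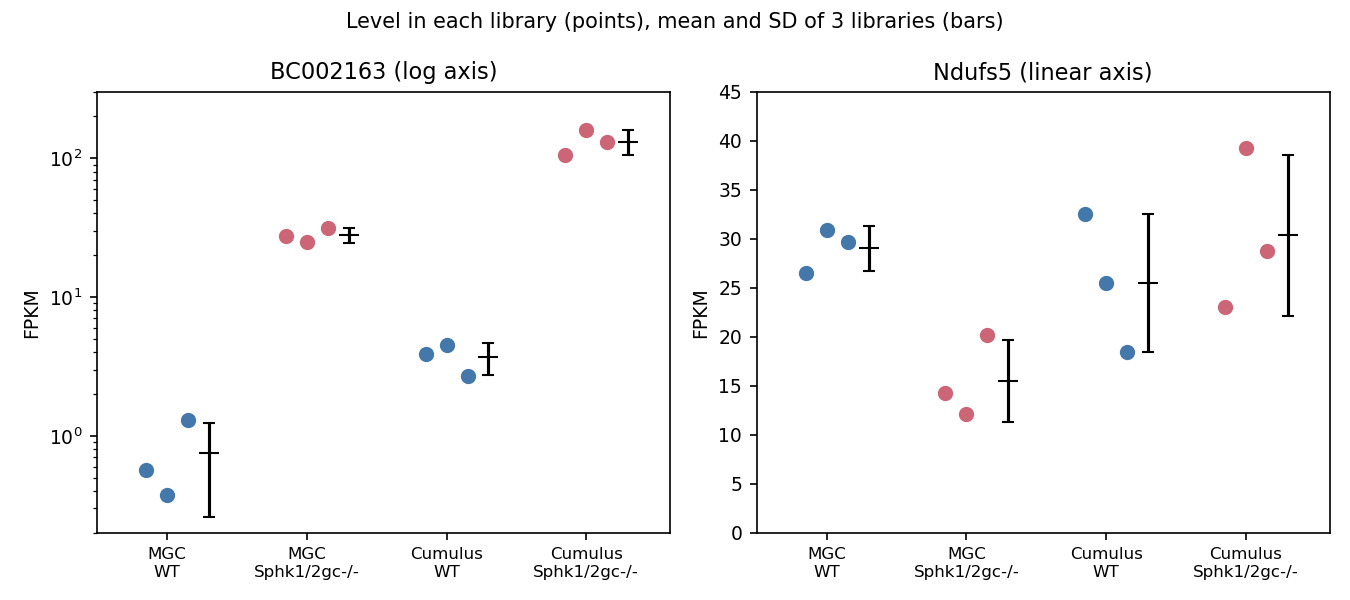
FPKM of BC002163 (left, log axis) and Ndufs5 (right, linear axis) in each of the 12 libraries, with points for libraries and bars for the mean and SD of 3. BC002163 lies at 4 separate levels from 0.748 FPKM in WT MGCs to 132 FPKM in Sphk1/2gc-/- cumulus cells, whereas Ndufs5 is low in Sphk1/2gc-/- MGCs, at 12.1 to 20.2 FPKM, and overlaps between genotypes in cumulus cells.

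Ordered by level, BC002163 stood at 0.748 ± 0.489 FPKM in WT MGCs, 3.70 ± 0.943 in WT cumulus cells, 27.9 ± 3.41 in Sphk1/2gc-/- MGCs and 132 ± 27.2 in Sphk1/2gc-/- cumulus cells (SD, n = 3 each). No neighbours in this order overlapped. Scaled to the recovered reads of each library, the ratio of Sphk1/2gc-/- to WT was 37.3 in MGCs (95% exact interval 21.2 to 72.7, from 464 and 12 reads) and 35.7 in cumulus cells (27.7 to 46.9, from 2439 and 61 reads). These intervals cover counting error only. On the scale of log2(FPKM + 1), on which all fits below were made, the difference was 4.08 (SE 0.223) in MGCs and 4.82 (SE 0.215) in cumulus cells, a scale that understates the change of a gene as low as BC002163 was in WT. The difference between those differences was 0.74 (SE 0.320) with 1 FPKM added and -0.06 with 0.1 FPKM added, so its direction depended on the value added. Without the third WT cumulus library the difference in cumulus cells was 4.65, and without the third Sphk1/2gc-/- MGC library that in MGCs was 3.99.

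The contrast of cell types within a genotype was not used to choose the gene and was tested with limma over all 12 libraries. Over all genes tested, the median of this contrast was not 0. It was 0.54 on the log2 scale toward MGCs in WT and 0.51 in Sphk1/2gc-/-, and 0.09 in both after median-ratio scaling, and the values here are to be read against that shift. BC002163 was higher in cumulus cells than in MGCs by 1.44 on the log2 scale in WT (limma, MGC minus cumulus -1.44, SE 0.226, adjusted p = 9.83e-05) and by 2.19 in Sphk1/2gc-/- (-2.19, SE 0.226, adjusted p = 3.25e-06). With 0.1 FPKM added the difference was -2.28 in WT and -2.22 in Sphk1/2gc-/-, and after median-ratio scaling it was -1.85 and -2.90. All 3 cumulus libraries lay above all 3 MGC libraries in each genotype, and how many of all genes did so was not counted. By the adjusted p alone, 24.1% of all genes were higher in cumulus cells in WT and 22.0% in Sphk1/2gc-/-. Genes called higher in cumulus cells made up 15.4% of the 15869 tested in WT and 13.7% in Sphk1/2gc-/-. In reads scaled to the recovered total, the ratio of cumulus cells to MGCs was 4.94 (95% exact interval 2.63 to 10.1) in WT and 4.73 (4.28 to 5.23) in Sphk1/2gc-/-.

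For Ndufs5, the parent gene, the genotypes did not overlap in MGCs and overlapped in cumulus cells, and neither difference passed the test. WT MGC libraries were at 26.5, 30.9 and 29.7 FPKM (376, 446 and 431 reads) and Sphk1/2gc-/- MGC libraries at 14.3, 12.1 and 20.2 FPKM (208, 176 and 314 reads). All Sphk1/2gc-/- libraries lay below all WT libraries, which was so for 9.17% of the genes tested in MGCs. The difference on the log2 scale was -0.89 (SE 0.195) and was not called (limma, unadjusted p = 0.00271, adjusted p = 0.227), in a comparison in which 0.0327% of genes were called lower. Without the third Sphk1/2gc-/- MGC library, the highest of its group for Ndufs5, it was -1.09 with an adjusted p of 0.0176 and passed the rule, in a fit that called 116 genes higher and 54 lower. That library also stood apart in 7 genes of cumulus expansion and its EGF-like signals, which summed to 719 FPKM in it and to at least 3826 FPKM in each WT MGC library, and the part of this in the result was not tested.

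In cumulus cells, Ndufs5 was at 32.5, 25.5 and 18.5 FPKM in WT (450, 394 and 279 reads) and at 23.1, 39.3 and 28.7 FPKM in Sphk1/2gc-/- (374, 668 and 474 reads). These groups overlapped, and the difference of 0.25 on the log2 scale (SE 0.254, limma adjusted p = 0.511) was about as large as its error. It fell to 0.04 without the third WT cumulus library, which was the lowest of the 6. Genes called lower made up 3.85% of those tested in cumulus cells.

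The genotype difference of Ndufs5 was 1.14 higher on the log2 scale in cumulus cells than in MGCs (SE 0.343), and this interaction did not pass (limma adjusted p = 0.0826), in a test in which 3.93% of 15869 genes did. It passed without the third Sphk1/2gc-/- MGC library (1.33, adjusted p = 0.0418) and without the first Sphk1/2gc-/- cumulus library (1.31, adjusted p = 0.0446). Ordered by level, Ndufs5 stood at 15.5 ± 4.20 FPKM in Sphk1/2gc-/- MGCs, 25.5 ± 7.01 in WT cumulus cells, 29.0 ± 2.28 in WT MGCs and 30.4 ± 8.23 in Sphk1/2gc-/- cumulus cells (SD, n = 3 each), and each neighbouring pair in this order overlapped. Between cell types, Ndufs5 differed by 0.21 on the log2 scale in WT (MGC minus cumulus, limma adjusted p = 0.432) and by -0.92 in Sphk1/2gc-/- (adjusted p = 0.00454, under the 2-fold limit). After median-ratio scaling these were -0.50 and -1.62, so the WT direction followed the scaling and the Sphk1/2gc-/- difference then passed the rule.

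Set side by side per kilobase, BC002163 was the smaller of the pair in every WT library and the larger in every Sphk1/2gc-/- library. That order divides by 319 bases for BC002163 and 860 for all Ndufs5 exons, while a single annotated Ndufs5 transcript has 525. By reads alone BC002163 was the smaller in every Sphk1/2gc-/- MGC library as well, so the order in those libraries depends on the lengths used. Mean levels in Sphk1/2gc-/- were 27.9 FPKM for BC002163 and 15.5 FPKM for Ndufs5 in MGCs, and 132 against 30.4 FPKM in cumulus cells. As reads, BC002163 took 0.792%, 0.446% and 1.598% of the reads listed under either gene in WT MGCs, and 41.6%, 43.2% and 36.7% in Sphk1/2gc-/- MGCs. Its share was 4.26%, 6.19% and 5.10% in WT cumulus cells and 62.7%, 60.0% and 63.0% in Sphk1/2gc-/- cumulus cells. The share needs no scaling between libraries, and its 95% exact binomial intervals were wide only in relative terms in WT, for example 0.0541% to 1.603% in the second WT MGC library and 57.6% to 62.4% in the second Sphk1/2gc-/- cumulus library.

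The mean share was 0.945% ± 0.591 in WT MGCs, 5.18% ± 0.970 in WT cumulus cells, 40.5% ± 3.40 in Sphk1/2gc-/- MGCs and 61.9% ± 1.64 in Sphk1/2gc-/- cumulus cells (SD, n = 3 each). Cumulus cells exceeded MGCs by 4.24 percentage points in WT and 21.4 in Sphk1/2gc-/-, with no overlap between the 3 and 3 libraries in either genotype. In a 2-sided exact permutation test over libraries, p was 0.10 for each, which is the smallest that 3 against 3 libraries can give.

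**Figure D3:**
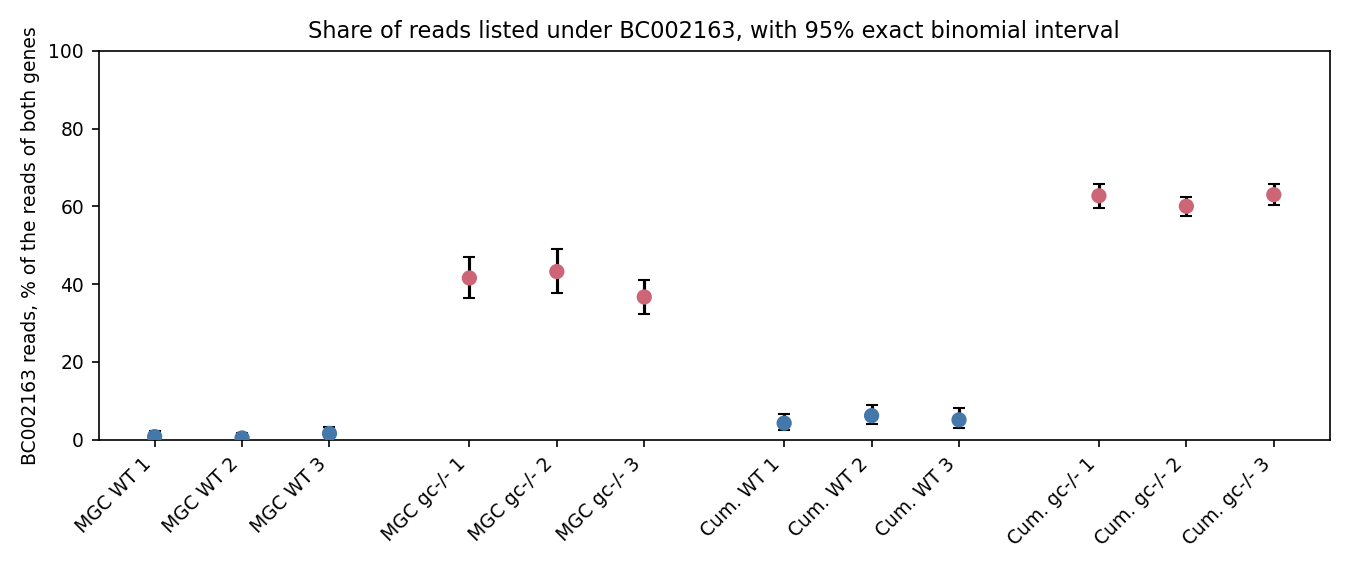
Reads listed under BC002163 as a percentage of the reads listed under BC002163 or Ndufs5, 1 point per library with its 95% exact binomial interval (counting error only). WT libraries lie at 0.446% to 6.19% and Sphk1/2gc-/- libraries at 36.7% to 63.0%, with cumulus cells above MGCs in each genotype.

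The reads of both genes together overlapped between genotypes in MGCs and not in cumulus cells. In MGCs they summed to 379, 448 and 438 reads in WT and to 356, 310 and 496 in Sphk1/2gc-/-. The mean listed under BC002163 was 8.67 RPM (reads per 1000000 recovered reads) higher in Sphk1/2gc-/- and the mean listed under Ndufs5 changed by -11.6, leaving the sum changed by -2.97, from 25.2 ± 1.97 to 22.2 ± 4.70 (SD, n = 3). In cumulus cells the sum was 470, 420 and 294 reads in WT and 1003, 1671 and 1281 in Sphk1/2gc-/-, without overlap. There BC002163 was 40.9 RPM higher in Sphk1/2gc-/- and Ndufs5 was 4.21 higher, and the sum went from 23.1 ± 6.23 to 68.2 ± 15.7 (SD, n = 3), a ratio of means of 2.95. The ratio of the pooled reads, scaled to the totals, was 2.99 (95% exact interval 2.797 to 3.19). Since the sum holds the gene picked for its genotype difference, it is a description and was not tested. Whether reads moved between the entries for the pair was not tested.

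**Figure D4:**
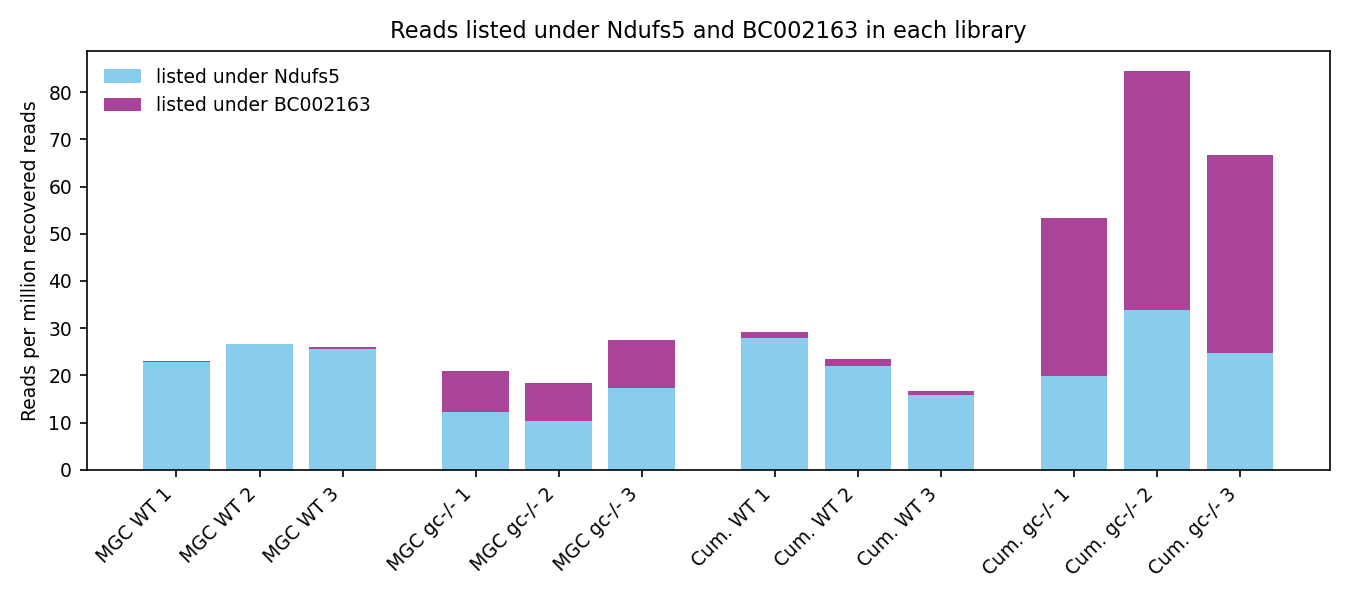
RPM listed under Ndufs5 (lower part of each bar) and BC002163 (upper part) in each library, on an axis from 0. The height of the bars overlaps between genotypes in MGCs (18.3 to 27.4), and all 3 Sphk1/2gc-/- cumulus bars (53.3 to 84.6) stand above the WT ones.

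The other nuclear-encoded subunits of complex I give the setting for Ndufs5. In MGCs, 35 of 35 listed subunits were tested and 0 were called in either direction (limma, 0 also at an unadjusted p of at most 0.05). Over all genes, 0.00654% were called higher and 0.0327% lower, and 3.31% and 5.90% passed the unadjusted p. With so few genes called, a count of 0 does not set the subunits apart. Their median difference was 0.02 on the log2 scale, beside -0.0034 over all genes tested. They ran from -0.31 to 0.17, and Ndufs5, at -0.89, was the lowest of the 36. By mean level it was the 14th of the 36 subunits in MGCs, at 22.3 FPKM against a median of 19.3 FPKM for the others.

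In cumulus cells most other subunits lay below 0, where Ndufs5 did not. All 35 were tested, 33 had negative differences, and their median was -0.51, beside -0.06 over all genes tested. Only Ndufc1, a small membrane subunit, was called lower, from 110 ± 39.0 to 48.02 ± 8.81 FPKM (log2 difference -1.13, SE 0.271, limma adjusted p = 0.0220), and 0 were called higher, beside 3.85% of all genes called lower and 4.19% higher. A further 9 were lower by the adjusted p alone, short of the 2-fold limit, which 12.7% of all genes passed in that direction, called ones included. At an unadjusted p of at most 0.05, 16 of 35 were lower and 1 higher, beside 21.9% and 16.3% of all genes. Ndufs5, at 0.25, was second only to Ndufb2 (0.37, limma adjusted p = 0.0767) among the 36. The number called lower ran from 0 to 3 as single libraries were left out, with 0 without the first WT or the third Sphk1/2gc-/- cumulus library, and with 3 without the third WT, first Sphk1/2gc-/- or second Sphk1/2gc-/- library.

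**Figure D5:**
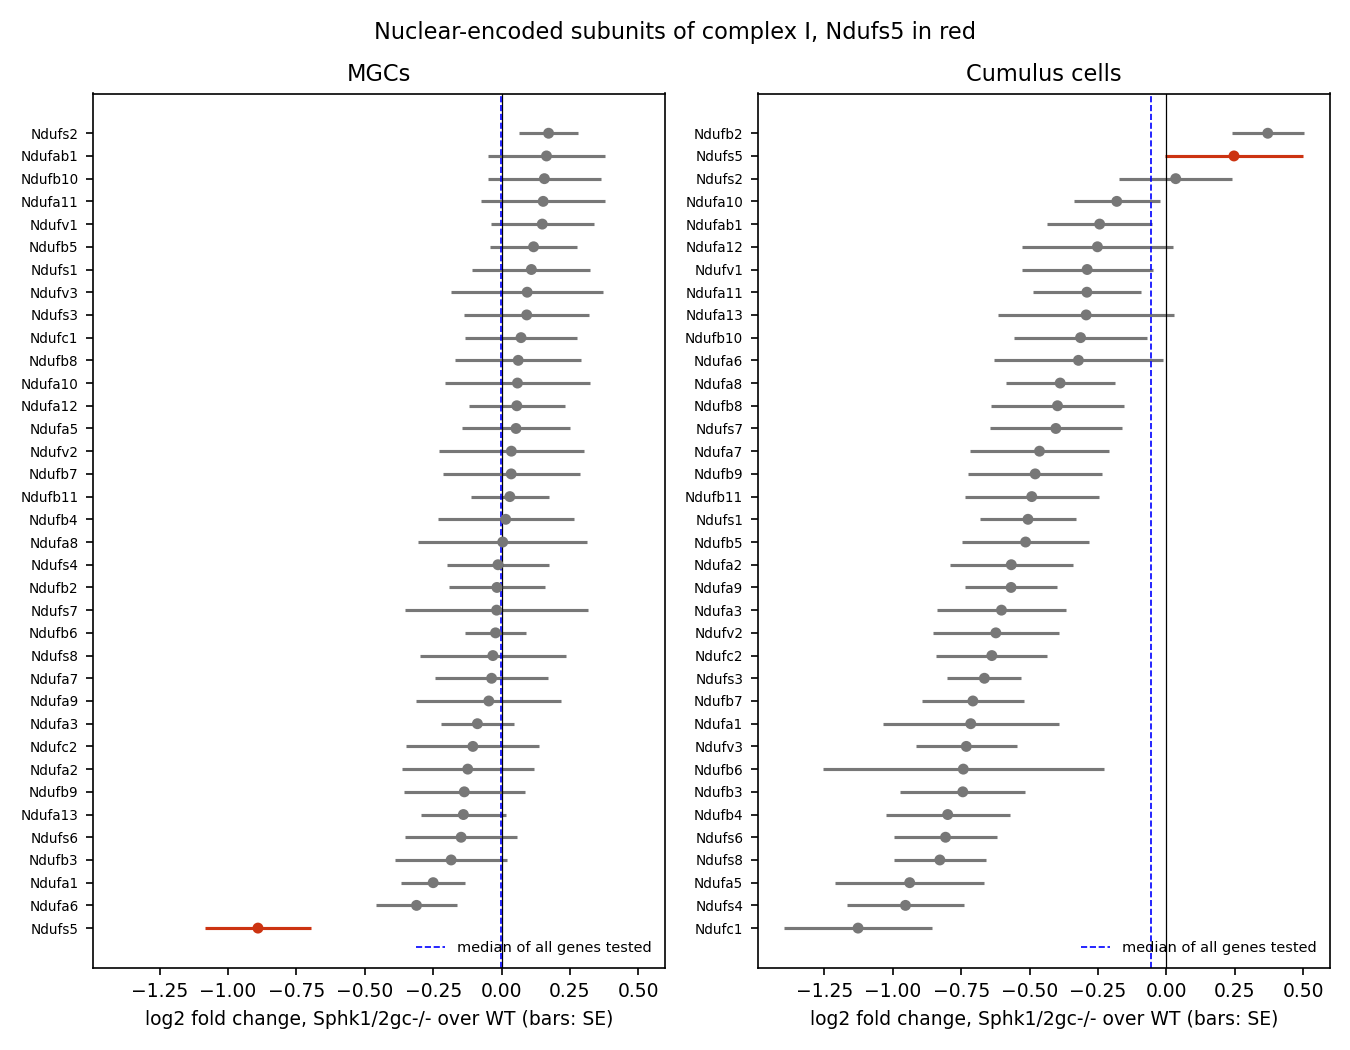
Log2 difference, Sphk1/2gc-/- minus WT, of the 36 nuclear-encoded complex I subunits in MGCs (left) and cumulus cells (right), with Ndufs5 in red, bars for the SE and a dashed line at the median of all genes tested. Ndufs5 is the lowest of the 36 in MGCs (-0.89) and the second highest in cumulus cells (0.25), where most other subunits lie below 0.

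Ndufa8, Ndufb7 and Ndufb10 are the subunits that share the paired cysteine motifs with Ndufs5. Ndufa8 differed by 0.0043 on the log2 scale in MGCs (SE 0.308) and -0.39 in cumulus cells (SE 0.199). Ndufb7 was at 0.04 in MGCs (SE 0.250) and -0.71 in cumulus cells (SE 0.187, limma adjusted p = 0.0305, under the 2-fold limit), and Ndufb10 was at 0.16 (SE 0.206) and -0.31 (SE 0.244). Over the list of 14 genes with such motifs or of their import machinery, Chchd4 and Gfer among them, 0 of 14 tested were called in MGCs and 0 of 13 in cumulus cells. The shares called over all genes were 0.00654% higher and 0.0327% lower in MGCs, and 4.19% and 3.85% in cumulus cells. The medians of the list were -0.01 and -0.31. Of the 13, 3 (Ndufb7, Chchd3 and Aifm1) were lower by the adjusted p alone in cumulus cells, beside the 12.7% of all genes.

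Among the 7 subunits encoded by mitochondrial DNA, 0 of 7 were called in MGCs, where the median was -0.43 and all 7 were negative. In cumulus cells mt-Nd3 was called lower, from 13.8 ± 7.27 to 1.58 ± 1.51 FPKM (log2 difference -2.60, SE 0.548, limma adjusted p = 0.0135), and the median of the 7 was -0.16. Of 14 assembly factors, which build the complex but do not stay in it, 0 were called in MGCs. In cumulus cells 2 of 14 were called lower, Ndufaf3 (-1.05, SE 0.173, limma adjusted p = 0.00566) and Ndufaf5 (-1.03, SE 0.237, adjusted p = 0.0184), 0 were called higher, and the median was -0.39. Over all genes tested in cumulus cells 3.85% were called lower and the median was -0.06. Over those in MGCs 0.00654% were called higher and 0.0327% lower, and the median was -0.0034.

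No neighbour of BC002163 was called. Of 25 annotated genes within 1 Mb, 4 were tested in MGCs and 7 in cumulus cells, and 0 were called in either (limma, 1 in each at an unadjusted p of at most 0.05). Over all genes, 0.00654% were called higher and 0.0327% lower in MGCs, and 4.19% and 3.85% in cumulus cells. A count of 0 among so few tested genes says little about the region. In cumulus cells Ccdc191 was lower by the adjusted p alone (log2 difference -0.80, limma adjusted p = 0.0288), as were 12.7% of all genes, called ones included. The host gene Zbtb20 read 7.14, 6.82 and 4.06 FPKM in the WT MGC libraries and 5.49, 4.82 and 3.15 FPKM in Sphk1/2gc-/- MGCs, a log2 difference of -0.35 (SE 0.258, limma adjusted p = 0.739). In cumulus cells Zbtb20 was at 6.32, 6.40 and 5.88 FPKM in WT, against 6.07, 9.05 and 9.36 FPKM in Sphk1/2gc-/-, a difference of 0.33 (SE 0.180, adjusted p = 0.219). Its groups overlapped in both cell types.

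Around Ndufs5, 0 of 20 tested genes within 1 Mb were called in MGCs (limma, 2 at an unadjusted p of at most 0.05). Over all genes in MGCs, 0.00654% were called higher and 0.0327% lower. In cumulus cells 4 of 21 were called higher and 1 lower, beside the 4.19% and 3.85% called over all genes. Cap1, an actin-binding regulator of the cytoskeleton, went from 0.852 ± 0.182 to 9.87 ± 1.25 FPKM (log2 difference 2.55, SE 0.155, adjusted p = 0.000144). Heyl, a Notch target gene, went from 35.2 ± 12.5 to 108 ± 41.7 FPKM (1.57, adjusted p = 0.0149), and in MGCs it differed by 1.03 without passing (adjusted p = 0.0649). Bmp8a, a bone morphogenetic protein, differed by 1.36 (adjusted p = 0.00150) and Pabpc4, a poly(A)-binding protein, by 1.00 (adjusted p = 0.0236). Mfsd2a, a transporter of lysophospholipids, was lower, by -1.13 (adjusted p = 0.00420). The nearest of these, Bmp8a, was 388 kb from Ndufs5, measured between gene midpoints.

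Among processed pseudogenes, BC002163 was 1 of 849 tested in MGCs and 1 of 788 tested in cumulus cells. Apart from BC002163, which was chosen on these values, no processed pseudogene was called in MGCs. In cumulus cells 15 (1.90%) were called higher and 17 (2.16%) lower, beside 4.19% and 3.85% of all genes. Unlike the MGC count, the 15 include BC002163 itself. These counts are no test of BC002163. By log2 difference it was the second highest of these pseudogenes in MGCs, after Gm12396, and the highest in cumulus cells, where the next, Gm2862, was at 2.01. By mean level it was the 93rd of the 2818 processed pseudogenes in the MGC table and the 46th of 3708 in the cumulus table. These ranks describe the gene that was chosen and carry no test.

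The genes whose pattern was most like that of BC002163, by Pearson's r of log2(FPKM + 1) over the 12 libraries with each cell type centred on its own mean, were Ipo7 (r = 0.965), Slc5a3 (0.949), Wdfy1 (0.942), Usp31 (0.937) and Gm42047 (0.936), out of 8813 genes whose mean reached 1 FPKM in both cell types. The libraries share genotype, so any gene that separates the genotypes scores high here. Ipo7, a nuclear import receptor, went from 19.9 ± 1.06 to 24.8 ± 0.561 FPKM in MGCs and from 7.81 ± 0.308 to 11.3 ± 0.435 FPKM in cumulus cells. Slc5a3, a myo-inositol transporter, went from 8.54 ± 0.129 to 13.9 ± 1.79 FPKM and from 5.06 ± 0.461 to 10.2 ± 1.011 FPKM (SD, n = 3). Gm42047, an unnamed locus, went from 8.83 ± 2.68 to 28.8 ± 3.88 FPKM and from 1.49 ± 0.515 to 5.23 ± 0.864 FPKM.

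By the same measure the genes most like Ndufs5 were Arid1b (r = 0.859), Foxn3 (0.855), Gm15772 (0.849), Cask (0.836) and 1810022K09Rik (0.826), and none of these is a complex I subunit on the list used. Arid1b, a subunit of a chromatin remodelling complex, read 8.12 ± 1.06 FPKM in WT MGCs, 6.28 ± 0.574 in Sphk1/2gc-/- MGCs, 0.970 ± 0.142 in WT cumulus cells and 1.23 ± 0.222 in Sphk1/2gc-/- cumulus cells (SD, n = 3). BC002163 and Ndufs5 themselves had r = -0.276. That r joins the genotypes, between which Ndufs5 differed by -0.89 in MGCs and 0.25 in cumulus cells. Within each Sphk1/2gc-/- group both genes ranked the libraries in the same order, and within neither WT group did they. No r was calculated within a group.

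Marker lists of the cell types labelled and of other cells differed with genotype in some cases, and their part in the values above was not tested. In bulk RNA, fewer cells of a type and less RNA per cell cannot be told apart. In MGCs 0 genes of these lists were called, beside 0.00654% called higher and 0.0327% called lower over all genes. The summed level of 8 leukocyte markers there was 161 to 304 FPKM in WT against 20.1 to 102 FPKM in Sphk1/2gc-/-. S100a8 and S100a9, calcium-binding proteins of neutrophils, and Lyz2, a lysozyme of myeloid cells, carried most of that sum, with log2 differences of -2.64, -3.15 and -1.10. Ptprc, Cd68 and Csf1r, other leukocyte markers, were at -0.0090, 0.06 and 0.18. Endothelial markers (5 genes) summed to 11.7 to 15.1 FPKM in WT and 7.65 to 9.26 FPKM in Sphk1/2gc-/- MGCs, and erythrocyte markers (5 genes) to 262 to 404 and 30.6 to 291 FPKM. The 7 expansion genes summed to 3826 to 4210 FPKM in WT and 719 to 6069 FPKM in Sphk1/2gc-/- MGCs, and 5 genes of mural and luteinizing cells to 1558 to 2045 and 830 to 1187 FPKM. Those 5 went both ways, with log2 differences of -1.97 for Star, -1.60 for Cyp11a1 and -0.44 for Lhcgr, against 0.67 for Cyp19a1 and 0.25 for Nppc. Oocyte markers (7 genes) summed to 33.2 to 85.4 and 24.7 to 100.7 FPKM in MGCs.

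In cumulus cells, where 3.85% of all genes were called lower and 4.19% higher, 1 of 4 tested leukocyte markers (S100a9), 1 of 3 theca and stroma markers and 1 of 4 erythrocyte markers were called lower. S100a9 was at 11.7, 2.34 and 1.75 FPKM in the WT libraries, so its level there rested mostly on the first. The other tested leukocyte markers went both ways, with log2 differences of -1.36 for S100a8, 1.44 for Lyz2 and 0.67 for Cd68, none of them called. Of 8 granulosa markers 3 were called lower, and they summed to 3925 to 5083 FPKM in WT and 2718 to 3082 FPKM in Sphk1/2gc-/-. Of the 5 mural and luteinizing genes 3 were called lower, the LH receptor Lhcgr and the steroidogenic enzymes Cyp11a1 and Cyp19a1, with sums of 104 to 172 and 59.1 to 99.7 FPKM. Of the 7 expansion genes 2 were called higher, the matrix genes Ptx3 and Tnfaip6, with sums of 376 to 843 and 1182 to 1476 FPKM. Oocyte markers, of which 4 of 7 were tested and 0 called (limma, 3 lower at an unadjusted p of at most 0.05), summed to 3.78 to 6.83 FPKM in WT and 2.12 to 2.51 FPKM in Sphk1/2gc-/-. The leukocyte sums were 4.87 to 54.9 and 6.88 to 51.9 FPKM, the theca and stroma sums 11.5 to 36.8 and 5.63 to 11.8 FPKM, and the erythrocyte sums 4.37 to 26.8 and 0.300 to 1.78 FPKM. Endothelial markers summed to at most 0.905 FPKM. None of the markers in the tables was at 0 in all libraries.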

How the data were processed

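The authors deposited 1 table of FPKM values per cell type, made per the submitters' processing notes with HISAT2 on GRCm38. Libraries were made from 2 μg of total RNA with the NEBNext Ultra kit, and the counting tool is not given in the sources used here. FPKM divides fragments by exon length and library total, so it is relative within a library. Whole reads were recovered as multiples of the value of 1 read, with GENCODE M21 exon lengths, and were used for shares and intervals (95% exact binomial, SciPy 1.17.1).

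Genotypes were compared within a cell type, and cell types within a genotype, with limma 3.58.1 (trend) in R 4.3.3 on log2(FPKM + 1). Genes were tested if a group's mean reached 0.5 FPKM. Calls needed a Benjamini-Hochberg adjusted p of at most 0.05 and, except for the interaction, a 2-fold change. The script was tested on simulated data with a capped spread and with changes larger than the genotype differences of Ndufs5. That checks the code and gives no assurance about the results here. Transcripts were searched with blastn 2.17.0. Same-numbered MGC libraries deviated together (correlations 0.220, 0.158 and 0.224), cumulus libraries did not (-0.148, -0.051 and 0.115), and no label says what a number shares.

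The members, lists and tests were chosen with earlier results of these data known. Named in any case were both members, Sphk1, Sphk2, the gene holding BC002163, Ndufa8, Ndufb7 and Ndufb10. Further names were the called complex I and paired-cysteine genes (at most 3 a direction and cell type), the called genes within 1 Mb, annotated copies of Ndufs5, and the 5 genes most like each member. Named after their values were seen were Ndufb2, Gm12396, Gm2862, Ccdc191, the assembly factors and the marker genes. Alternatives were 0.1 FPKM added, no filter, a filter of 1 FPKM, median-ratio scaling, a replicate block, FPKM shares and each library left out.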

Additional observations from a re-analysis of the deposited data

How the results depend on the processing

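With 0.1 FPKM added, the genotype difference of BC002163 was 5.19 in MGCs and 5.13 in cumulus cells, the difference between them reversed to -0.062, 3 genes were called higher in MGCs, and 825 were called higher and 849 lower in cumulus cells, against 511 and 470. The number called lower in MGCs, 5 with the settings used, was 0 without a filter and 0 after median-ratio scaling. With the replicate block, 2 were called higher and 1 lower in MGCs, and in cumulus cells 506 higher and 456 lower. It changed no call of a member or count of complex I subunits, and calls in the other lists and among neighbours were not fitted with it. Without a filter 0 complex I subunits were called lower in cumulus cells. Median-ratio scaling reversed the cell type difference of Ndufs5 in WT to -0.50 (adjusted p = 0.0795) and made that in Sphk1/2gc-/- -1.62. From FPKM in place of reads, the share of BC002163 was 2.498% and 64.7% in WT and Sphk1/2gc-/- MGCs and 12.8% and 81.4% in cumulus cells, since FPKM divides by the shorter length of BC002163.

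With single libraries left out, the Ndufs5 difference in MGCs ran from -1.09 to -0.74, and the genes called there from 0 to 116 higher and from 0 to 54 lower, both highest without the third Sphk1/2gc-/- library. Complex I subunits called lower in cumulus cells ran from 0 to 3, the cell type difference of Ndufs5 in Sphk1/2gc-/- from -1.12 to -0.73, passing the rule without the third Sphk1/2gc-/- MGC or the first Sphk1/2gc-/- cumulus library (-1.10), and its interaction from 0.93 to 1.33. Otherwise the cause of these changes was not tested. In WT MGCs, with 2 to 7 reads of BC002163 a library, depth limits every ratio.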
